A study of Mus musculus with 18 samples.

Results

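The splicing factor genes described here are the genes on a mouse expression array whose symbols begin with Srsf, Sf3a, Sf3b, Prpf, Clk1 to Clk4, Luc7l or Rbm followed by a number. Of 18193 genes measured in the cerebellum, 74 met this rule on their symbol alone: 10 Srsf, 3 Sf3a, 6 Sf3b, 12 Prpf, 4 Clk, 3 Luc7l and 36 Rbm genes. The symbol rule also takes in Rbm3os and Rbm46os, noncoding transcripts antisense to Rbm genes, and Rbm genes with roles outside splicing. Each gene is represented by its probe set (a group of short probes read as 1 value) with the highest mean over all arrays, out of 212 probe sets for the 74 genes. Rbm3, Rbm4 and Rbm10 lay only on probe sets that also name other genes, 10 such probe sets in all for these families, and were not analysed here.

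The 18 arrays held cerebellar RNA of C57BL/6 mice in 6 groups of 3, from a study of spinocerebellar ataxia type 6 and of Cav2.1, the calcium channel encoded by Cacna1a. In 1 line the mice were homozygous for the knock-in allele the labels call MPI 118Q, in another for MPI 11Q, and in the third for the knockout allele called Sca6 CtmKO. Each line came with its own wild-type littermates, and every mouse was of the same strain. An age of 6 weeks is given for the 118Q and Ctm mice, and no age is used here for the 11Q mice. The labels do not say whether arrays of a group came from separate litters, so p-values measure the spread between these arrays only.

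Most protein-coding transcripts are spliced by the spliceosome, in which the U1 and U2 small nuclear ribonucleoproteins mark the ends of an intron before the U4/U6.U5 tri-snRNP joins and the catalytic steps follow. Srsf proteins bind exons and guide this choice, Clk kinases phosphorylate them, and Luc7l proteins travel with U1. Sf3a and Sf3b proteins are parts of the U2 particle, and Prpf proteins act at several steps, from U1 and the tri-snRNP to catalysis. Neurons depend on these factors for their many alternative isoforms, and several Srsf and Clk transcripts are themselves spliced in alternative, partly untranslated forms.

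The 18 arrays had medians from 2.38 to 2.55 (log2) and correlated with each other at 0.973 to 0.995. On every array the summed signal of 8 Purkinje cell markers was at 12.72 or above and that of 9 granule cell markers at 12.64 or above on the log2 scale, so markers of both principal neuron types of the cerebellum were high throughout. Cacna1a itself was not called in any line: it averaged 5.64 in the 118Q knock-ins and 5.93 in their littermates, with a change of -0.29 (adjusted p = 0.341 by limma), at -0.061 (adjusted p = 0.910) in the Ctm line and at -0.086 (adjusted p = 0.933) in the 11Q line. Whether its probe set lies in the altered stretch is not known here. Below, levels are log2 expression values of a gene's probe set, changes are differences of log2 means with the standard error (SE) of the model, and a gene is called at an adjusted p below 0.05 over all 18193 genes.

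Among the 3 lines, calls among the splicing factor genes occurred in the Ctm line alone, where 12 of the 74 were higher in knockouts than in wild-type littermates and 0 were lower. These 12 make up 16.2% of the members, while 0.929% of all genes were called in this comparison, 0.835% higher and 0.0934% lower. The count was 0 of 74 in the 118Q line, where 1.54% of all genes were called, and 0 of 74 in the 11Q line, where 0% of all genes were called. At an unadjusted p below 0.05, 8 members passed in the 118Q line, 22 in the Ctm line and 2 in the 11Q line, beside 2937, 2185 and 998 of the 18193 genes. The members' shares were thus 10.8%, 29.7% and 2.70%. The median change of the members was 0.01 in the 118Q line, 0.04 in the Ctm line and -0.06 in the 11Q line, beside medians over all genes of 0.04, -0.06 and -0.02. In bulk tissue, fewer cells of a type and less RNA per cell cannot be told apart.

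**Figure D1:**
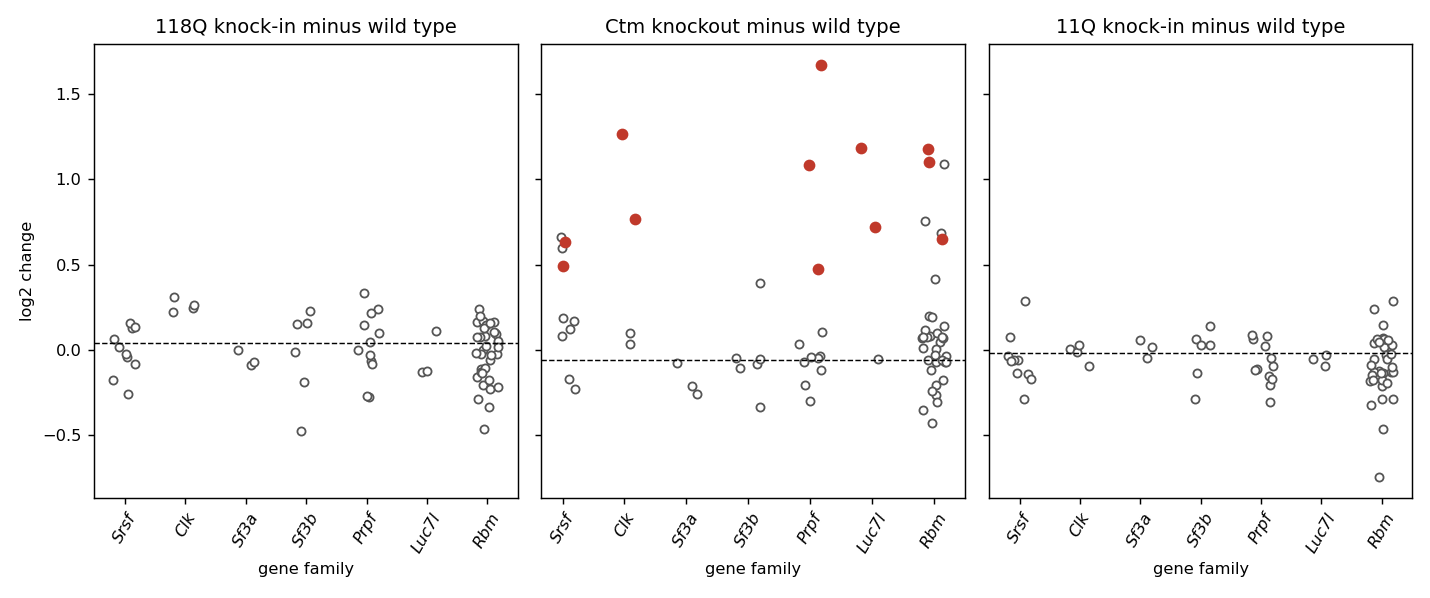
Log2 change, mutant minus wild-type littermates, of each of the 74 splicing factor genes (circles) by gene family in the 118Q, Ctm and 11Q lines; filled circles are genes called by limma and the dashed line is the median over all genes. The 12 filled circles all lie in the Ctm panel, between 0.47 and 1.67, and no gene was called in the other panels.

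By family, the Ctm calls comprised 2 of 4 Clk, 2 of 3 Luc7l, 3 of 12 Prpf, 3 of 36 Rbm and 2 of 10 Srsf genes, and 0 of 3 Sf3a and 0 of 6 Sf3b genes. The median change was 0.44 for the Clk, 0.72 for the Luc7l and 0.18 for the Srsf genes, and -0.21 for the Sf3a, -0.07 for the Sf3b and -0.04 for the Prpf genes. In 22 of the 74 genes all 3 knockouts lay above all 3 wild types, against 6.19% of all genes, and in 9 they lay below, against 15.1% of all genes.

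The Clk kinases phosphorylate the serine and arginine repeats of SR proteins and so set where in the nucleus these are active. Clk1 was at 7.60, 6.54 and 6.11 in Ctm wild-type arrays 1, 2 and 3 and at 7.88, 8.15 and 8.01 in the knockouts. On the 15 arrays other than the Ctm wild types it ran from 7.88 over a median of 8.08 to 8.52, so all 3 Ctm wild types lay below all other arrays, arrays 2 and 3 by far the most. The knockout minus wild-type change was 1.26 (SE 0.24, adjusted p = 0.0210). Clk4 showed the same order, with 5.65, 5.29 and 4.99 in the Ctm wild types, 6.14, 6.12 and 5.97 in the knockouts, and 5.97 to 6.60 with a median of 6.23 on the 15 arrays. Its change was 0.77 (SE 0.13, adjusted p = 0.0112). Clk2 and Clk3 were not called in the Ctm line, at 0.10 (adjusted p = 0.761) and 0.04 (adjusted p = 0.946). Clk2 was at 5.73, 5.94 and 5.91 in the wild types and 5.96, 6.02 and 5.90 in the knockouts, and Clk3 at 5.83, 6.11 and 6.01 against 6.10, 6.00 and 5.97, so that both groups overlapped.

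Luc7l genes encode relatives of a yeast U1 protein that acts on the choice of the 5′ splice site. Luc7l3 stood at 8.13, 7.17 and 6.62 in the Ctm wild types, at 8.56, 8.50 and 8.42 in the knockouts, and between 8.42 and 8.88 with a median of 8.61 on the 15 arrays. Luc7l2 stood at 7.44, 6.84 and 6.70 in the wild types, at 7.88, 7.58 and 7.68 in the knockouts, and between 7.58 and 8.23 with a median of 7.94 on the 15 arrays. For both genes the 3 Ctm wild types were the lowest arrays of the series, with array 1 nearest to the rest. The changes were 1.19 (SE 0.23, adjusted p = 0.0210) for Luc7l3 and 0.72 (SE 0.15, adjusted p = 0.0267) for Luc7l2. The third member, Luc7l, was at 6.12, 6.16 and 6.15 in the wild types and 6.13, 6.10 and 6.03 in the knockouts, with a change of -0.05 (adjusted p = 0.882).

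Among Prpf genes the largest difference was that of Prpf39, which encodes a U1-associated protein. It was at 6.14 in Ctm wild-type array 1 and at 4.01 and 4.27 in arrays 2 and 3, against 6.65, 6.31 and 6.47 in the knockouts. On the 15 other arrays it ran from 6.04 over 6.37 to 6.65, so array 1 lay within their range and only arrays 2 and 3 below it. The change was 1.67 (SE 0.34, adjusted p = 0.0267), a 3.19-fold difference. Prpf4b, a kinase gene whose product phosphorylates tri-snRNP proteins, was at 6.82, 6.09 and 5.78 in the wild types and 7.26, 7.26 and 7.41 in the knockouts, a change of 1.08 (SE 0.21, adjusted p = 0.0231). Prpf38b was at 6.56, 6.48 and 6.44 against 6.95, 6.94 and 7.02, a change of 0.47 (SE 0.10, adjusted p = 0.0312). In Prpf38b the 3 wild types were close together and the SD was 0.06 in wild types and 0.05 in knockouts, whereas in Prpf39 it was 1.16 and 0.17. The brightest Prpf genes were not called: Prpf19, the ubiquitin ligase of the complex that bears its name, was at -0.03 (adjusted p = 0.950), and Prpf8, the central protein of the U5 particle, had a mean of 7.60 in wild types and 7.63 in knockouts.

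Of the Rbm genes, named for an RNA-binding motif they share, Rbm25, Rbm41 and Rbm39 were called. Rbm25, which encodes a regulator of 5′ splice site use, was at 6.94, 6.04 and 6.02 in the Ctm wild types and 7.72, 7.37 and 7.43 in the knockouts, a change of 1.17 (SE 0.19, adjusted p = 0.00900). The 15 other arrays ran from 6.90 over 7.21 to 7.72, with knockout array 1 the highest of all and wild-type array 1 just inside their range. Rbm41, which encodes a relative of a minor spliceosome protein, was at 4.13, 3.23 and 2.99 against 4.63, 4.58 and 4.45, a change of 1.10 (SE 0.22, adjusted p = 0.0230). Rbm39, which encodes a coactivator related to the U2 auxiliary factor, was at 7.28, 6.64 and 6.95 against 7.73, 7.40 and 7.69, a change of 0.65 (SE 0.14, adjusted p = 0.0380). Rbm5, the brightest Rbm gene, encodes a regulator of exon skipping and was at 7.32, 7.52 and 7.44 against 7.65, 7.65 and 7.56, without a call.

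Among the Srsf genes, Srsf11 was at 7.96, 7.49 and 7.31 in the Ctm wild types and within 8.20 to 8.24 in the knockouts, a change of 0.63 (SE 0.12, adjusted p = 0.0207). On the 15 arrays it held to a range of 8.18 to 8.32, below which all 3 Ctm wild types fell. Srsf1, the prototype SR protein gene, was at 8.05, 8.14 and 7.78 against 8.43, 8.51 and 8.50, a change of 0.49 (SE 0.11, adjusted p = 0.0383). Srsf5, the brightest of the family, was at 9.01, 8.41 and 8.21 against 9.37, 9.02 and 9.02, a difference of 0.59 that was not called (adjusted p = 0.118). Sf3b1, which encodes the scaffold that holds the branch site, was at 7.98, 7.65 and 7.62 against 8.18, 8.15 and 8.10, a difference of 0.39 just short of a call (adjusted p = 0.0590). Sf3a1, Sf3a2 and Sf3b6, which with Sf3b1 are the brightest genes of their families, had differences from -0.21 to -0.08, none of them called.

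**Figure D2:**
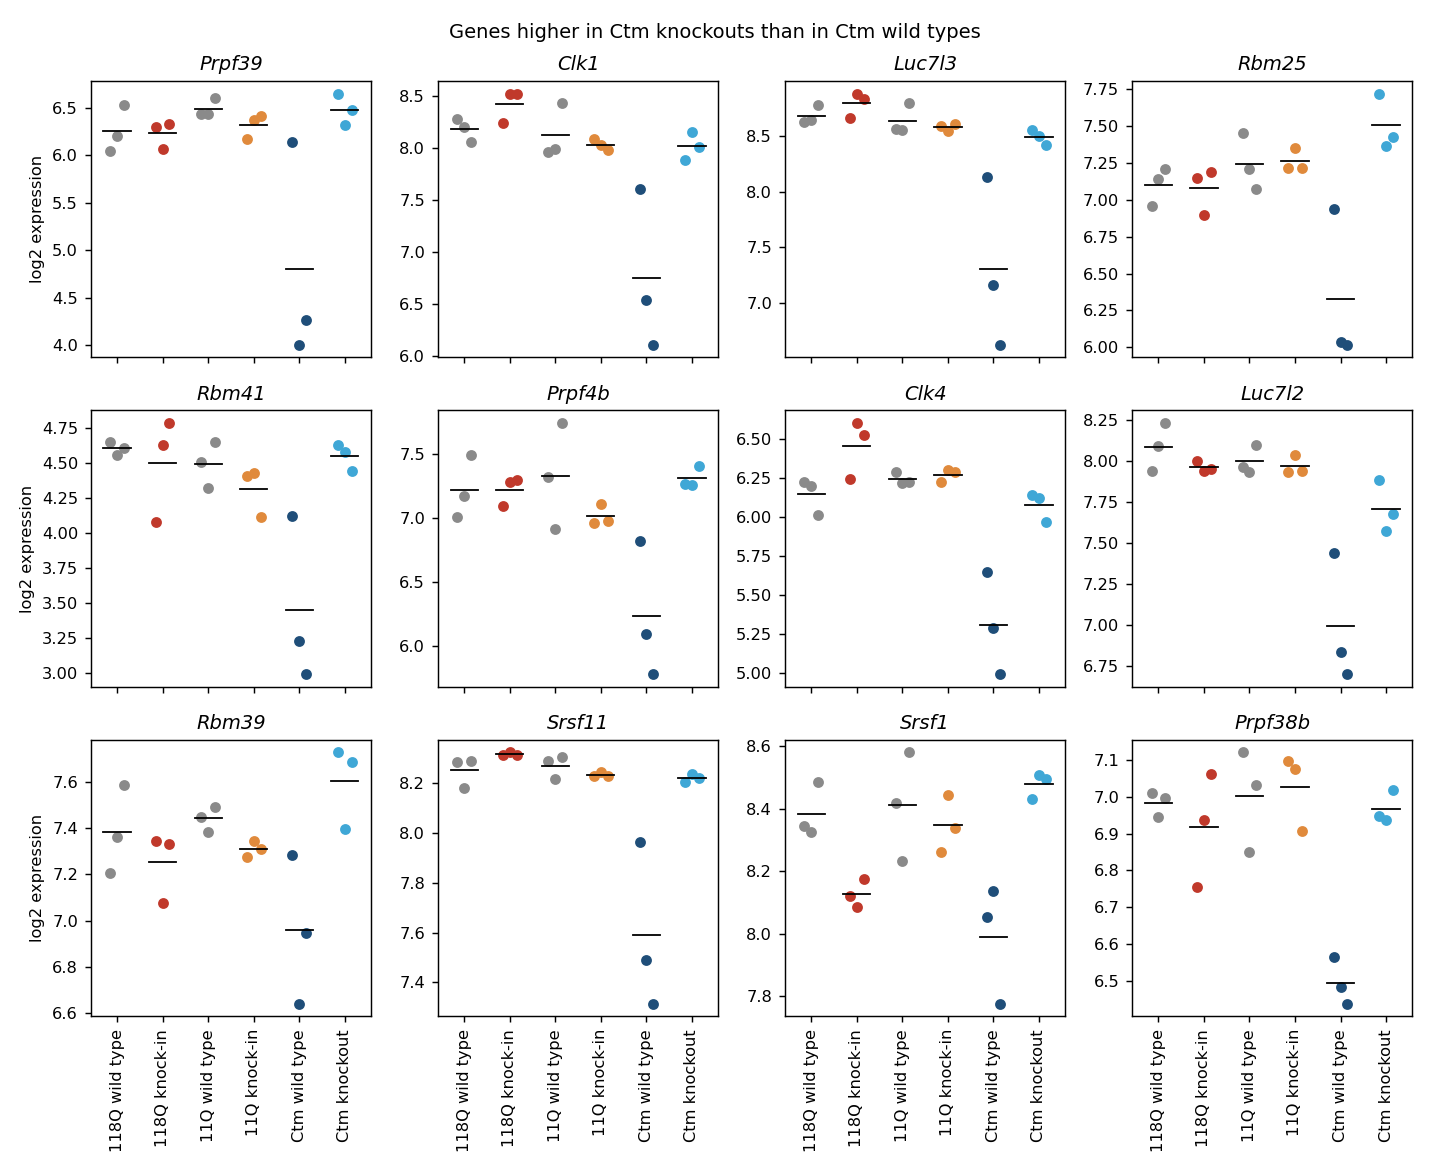
Log2 expression of the 12 genes called in the Ctm line on each array (points) of the 6 groups, with the group mean (bar); each panel has its own axis. Clk1 is at 7.60, 6.54 and 6.11 in the Ctm wild types and at 7.88 or above on the other 15 arrays, and the 118Q and 11Q groups lie near the Ctm knockouts in most panels.

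The promoters of called genes are printed for the 5 whose listed start of transcription is also the outer end of the annotated gene, since these genes differed together. The windows are 150 bases upstream of the start from RefSeq on build GRCm38.p6, with capitals for letters of any searched motif on either strand. Prpf39 lies at chr12:65036184-65036333 on the plus strand, Rbm41 at chrX:139998596-139998745 on the minus strand, Clk4 at chr11:51262964-51263113 on the plus strand, Rbm39 at chr2:156180239-156180388 on the minus strand and Prpf38b at chr3:108911730-108911879 on the minus strand.
Prpf39: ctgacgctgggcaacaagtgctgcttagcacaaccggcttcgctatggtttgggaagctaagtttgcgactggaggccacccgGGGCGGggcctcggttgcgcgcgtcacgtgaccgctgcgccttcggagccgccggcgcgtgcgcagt
Rbm41: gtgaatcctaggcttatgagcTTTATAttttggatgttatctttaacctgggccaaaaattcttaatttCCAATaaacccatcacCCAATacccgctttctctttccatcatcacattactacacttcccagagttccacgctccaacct
Clk4: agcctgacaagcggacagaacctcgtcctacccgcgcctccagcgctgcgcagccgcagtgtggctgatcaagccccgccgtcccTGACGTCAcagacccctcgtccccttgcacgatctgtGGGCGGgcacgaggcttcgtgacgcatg
Rbm39: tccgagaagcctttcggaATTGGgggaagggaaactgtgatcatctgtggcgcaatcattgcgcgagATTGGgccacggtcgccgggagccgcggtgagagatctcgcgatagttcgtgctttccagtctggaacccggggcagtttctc
Prpf38b: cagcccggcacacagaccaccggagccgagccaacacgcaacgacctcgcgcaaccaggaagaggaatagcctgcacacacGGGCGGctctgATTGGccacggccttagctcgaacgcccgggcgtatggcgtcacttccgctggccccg

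The motifs searched on both strands were CCAAT (bound by the factor NF-Y), TATAAA (the TATA box), GGGCGG (the GC box), CCGGAAG (an ETS factor site), TGACGTCA (the cyclic AMP response element), and the longer YY1 and ZBTB33 sites, none of which contains another. Over the 300 bases around the listed start, available for 62 members and 14368 genes of the array, CCAAT was found in 41.9% of members against 38.2% of array genes, GGGCGG in 58.1% against 54.1%, and TATAAA in 9.68% against 9.86%. CCGGAAG was found in 29.0% of members against 13.8% of array genes. It was in 2 of the 11 called members with a window (18.2%) and in 16 of the 51 not called (31.4%). TGACGTCA was in 1 member, Clk4, against 2.69% of array genes, the YY1 site in 3 against 1.18%, and the ZBTB33 site in 4 against 0.821%. The printed promoters thus share no single motif of this set. A match describes letters in a window and shows no binding, and the listed start was the outer end of the gene in 31 of the 62 windows. The 12 called genes had a median gene length of 29.2 kb, the 62 others 16.6 kb and all array genes 20.3 kb.

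More than 1 probe set read most of these genes, which allows a look at the same transcripts with other probes. With each of 34945 probe sets tested by itself, 29 of the 212 member probe sets (13.7%) were higher in Ctm knockouts and 0 lower, while 0.916% of all probe sets were called, and the 29 belonged to the same 12 genes. Of the 58 probe sets of these 12 genes, 55 had positive and 3 negative differences, from -0.29 to 1.67. All 3 probe sets of Prpf39 were called, with differences from 1.51 to 1.67, as were both of Clk4. For Luc7l2 6 of 8 were called, for Rbm25 4 of 6, for Prpf4b 4 of 6, for Luc7l3 2 of 3 and for Srsf1 3 of 7. For Rbm39 1 of 12 was called, although 11 of the 12 were positive, and for Srsf11 1 of 4, with all 4 between 0.43 and 0.63. For Prpf38b 1 of 4 was called, with all 4 positive from 0.29 to 0.60, and for Rbm41 1 of 2, the other being at 0.053. Clk1 had 1 probe set.

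**Figure D3:**
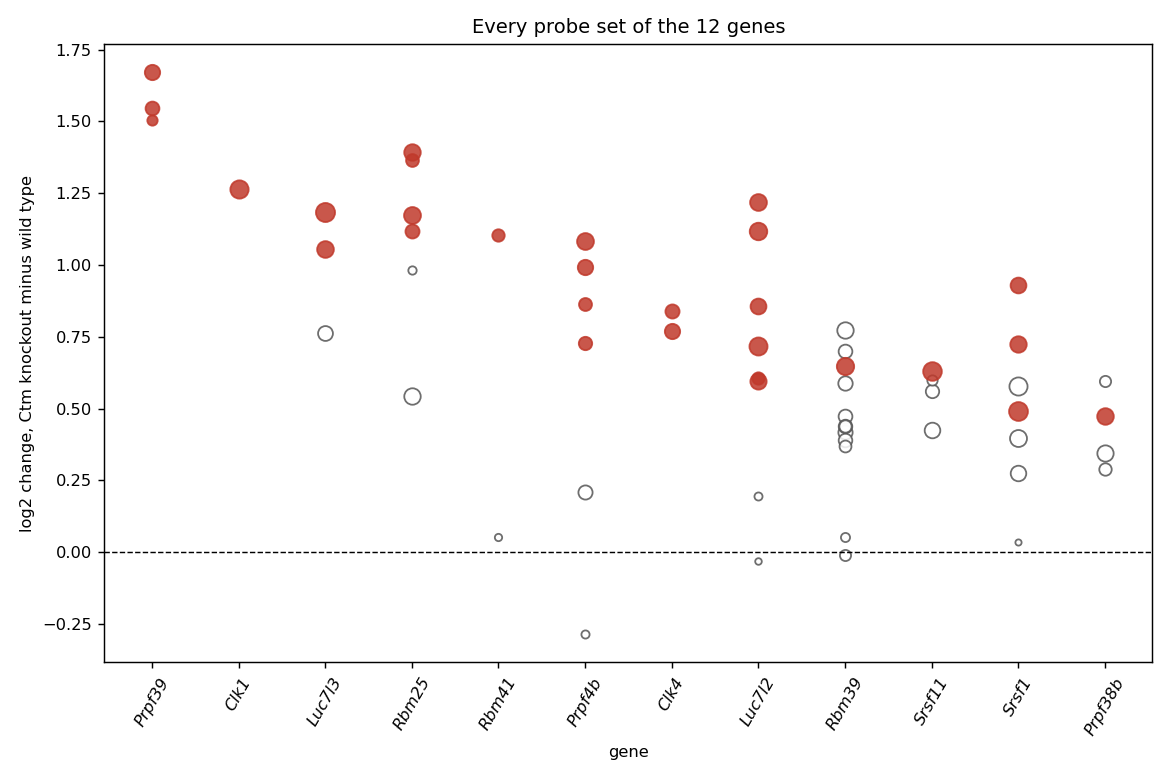
Log2 change, Ctm knockout minus wild type, of every probe set of the 12 called genes; filled circles are probe sets called by themselves and circle size rises with the mean level. Of 58 probe sets, 29 are filled and 3 lie below 0.

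The Ctm differences were then placed against the wild types of the other lines. Relative to the mean of the 6 wild-type arrays of the 118Q and 11Q lines (the knock-in-line wild types), Clk1 was at -0.55, -1.61 and -2.04 in Ctm wild types 1, 2 and 3 and at -0.27, 0.002 and -0.14 in the knockouts. Luc7l3 was at -0.53, -1.50 and -2.04 against -0.10, -0.16 and -0.24. Prpf39 was at -0.23, -2.37 and -2.10 against 0.27, -0.06 and 0.10. In these genes the knockouts lay near the other lines and the wild types below them, and the distance was largest in arrays 2 and 3. Rbm25 was at -0.24, -1.14 and -1.16 against 0.55, 0.19 and 0.25, so here the knockouts were on the high side.

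A moderated F test over the 3 wild-type groups asked whether wild types of the lines differed. It called 18 of the 74 genes, each with the Ctm wild types lower, while 9.78% of all genes were called and 6.08% with the Ctm wild types lower. The smallest adjusted p values were those of Luc7l2 (0.000375), Clk4 (0.000636), Luc7l3 (0.00128), Clk1 (0.00149) and Srsf11 (0.00181). By family these were 2 of 4 Clk, 2 of 3 Luc7l, 3 of 12 Prpf, 8 of 36 Rbm, 2 of 10 Srsf, 1 of 6 Sf3b and 0 of 3 Sf3a genes. Without Ctm wild-type arrays 2 and 3 the F test has a single Ctm wild type left, which is assumed to vary like the other groups. That refit cannot decide whether the members differ between wild types. Without array 3 alone it called 8, as the calls over all genes went from 1779 to 656 (3.61%). In the refit without arrays 2 and 3 the calls over all genes fell as well.

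In the direct contrast of Ctm wild types with the 6 other wild types, a comparison added after the data were seen, 24 of the 74 genes were lower and 0 higher, while 8.84% of all genes were lower and 7.32% higher. The 3 Ctm wild types lay below all 6 others in 25 members (33.8%), against 8.43% of all genes, and above them in 1 member, against 9.22% of all genes. Without array 1 the count was 23 lower and 1 higher beside 7.06% of all genes lower, without array 2 it was 18 lower beside 5.49%, and without array 3 it was 15 lower and 1 higher beside 5.81%. Without arrays 2 and 3 it was 2 lower beside 0.742%, as the calls over all genes went from 2939 to 201. Array by array, 36, 36 and 32 of the 74 genes fell below the range of the 6 wild types in Ctm wild types 1, 2 and 3, or 48.6%, 48.6% and 43.2%, beside 20.0%, 21.0% and 17.1% of all genes. A deficit of more than 1 on the log2 scale was seen in 0, 9 and 10 members, beside 0.407%, 1.46% and 1.71% of all genes on arrays 1, 2 and 3. Array 1 thus had as many members below the range as array 2 and fewer large deficits, the latter among all genes as well. In the Ctm knockouts 22, 21 and 29 members were below the range, or 29.7%, 28.4% and 39.2%, beside 21.6%, 23.9% and 28.1% of all genes.

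**Figure D4:**
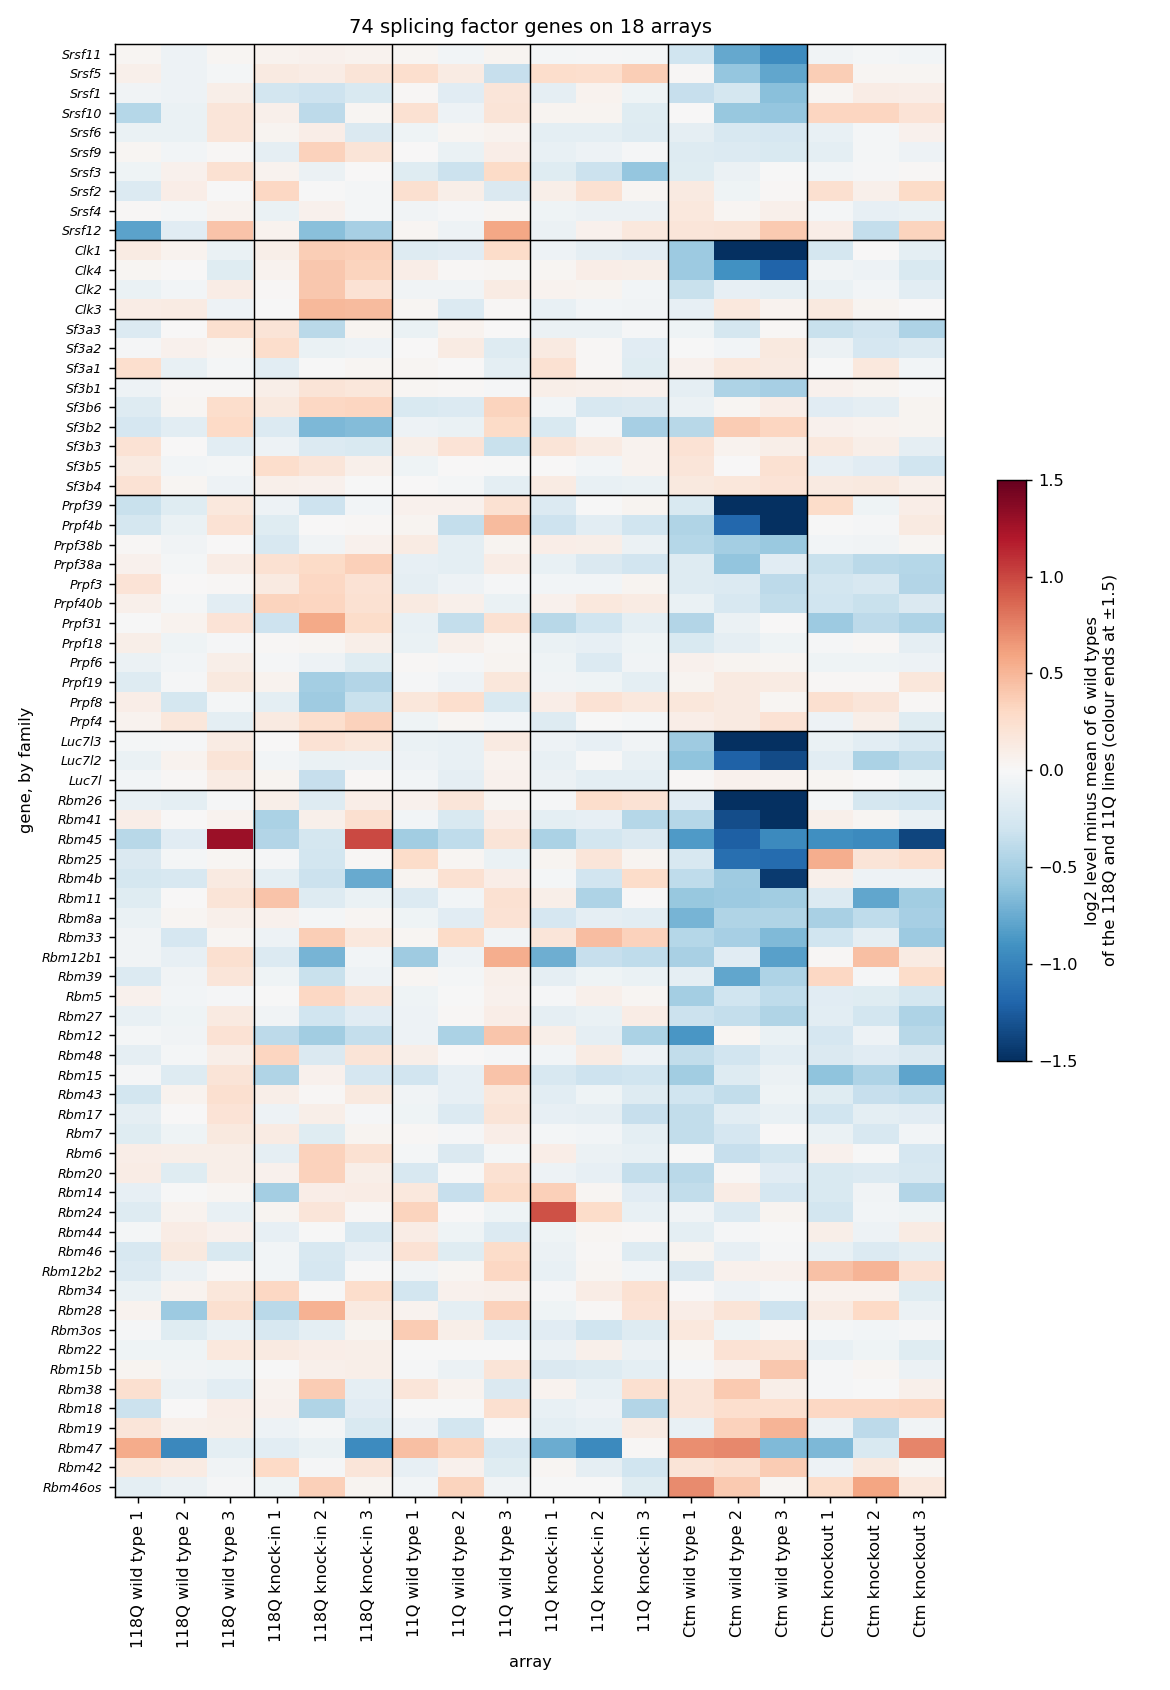
Log2 level minus the mean of the 6 knock-in-line wild types for the 74 genes (rows, by family) on the 18 arrays (columns, by group), with the colour scale ending at ±1.5. The darkest blue cells are in Ctm wild-type arrays 2 and 3, where 9 and 10 genes are lower by more than 1, beside 1.46% and 1.71% of all genes. Array 1 has 0 such genes, beside 0.407% of all genes, and 36 genes below the range of the 6 wild types, beside 20.0% of all genes.

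Genes low in the Ctm wild types were not all alike in the knockouts, and the genes of this paragraph outside the naming rule were chosen after their values were seen. The contrast of wild types and the contrasts with the knockouts share arrays, so their values are given side by side only. Rbm26, whose relatives serve nuclear RNA decay, was at 6.37, 4.73 and 4.66 in the Ctm wild types and 6.51, 6.28 and 6.24 in the knockouts. Against the mean of 6.55 in the 6 wild types, its wild-type mean differed by -1.29 (adjusted p = 0.00200) and its knockout mean by -0.20 (adjusted p = 0.636), and the knockouts exceeded their littermates by 1.09 without a call (adjusted p = 0.0781). Rbm8a, which encodes the Y14 subunit of the exon junction complex, was at 5.56, 5.81 and 5.81 in wild types and 5.77, 5.88 and 5.76 in knockouts, all 6 below the 6.26 of the other wild types. Its wild-type mean differed from that level by -0.53 (SE 0.09, adjusted p = 0.00111) and its knockout mean by -0.45 (SE 0.09, adjusted p = 0.00929), with 0.08 between knockouts and littermates (adjusted p = 0.832). Rbm45, an RNA-binding protein gene of neurons, was at 3.22, 2.85 and 3.12 against 3.16, 3.12 and 2.69, beside a mean of 4.07 in the other wild types with an SD of 0.68. Its differences from that mean were -1.01 (adjusted p = 0.0362) in wild types and -1.09 (adjusted p = 0.0386) in knockouts. Prpf3, which encodes a U4/U6 protein, was at -0.27 (adjusted p = 0.0371) and -0.32 (adjusted p = 0.0265). Prpf38a, a gene for a protein of the precatalytic spliceosome, was at -0.32 (adjusted p = 0.0347) and -0.39 (adjusted p = 0.0226). At the probe sets used for Rbm8a, Rbm45, Prpf3 and Prpf38a both Ctm groups were thus low, without the spread between array 1 and arrays 2 and 3 that Clk1 or Prpf39 showed. A dimmer Prpf38a probe set did show such a spread, at 3.98, 2.10 and 2.72 in wild types and 4.46, 3.65 and 3.85 in knockouts. Tested by itself, it was at -1.50 (adjusted p = 0.00194) in wild types and -0.45 (adjusted p = 0.339) in knockouts. Its dimmest probe set was at 0.15 and 0.36, without a call.

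**Figure D5:**
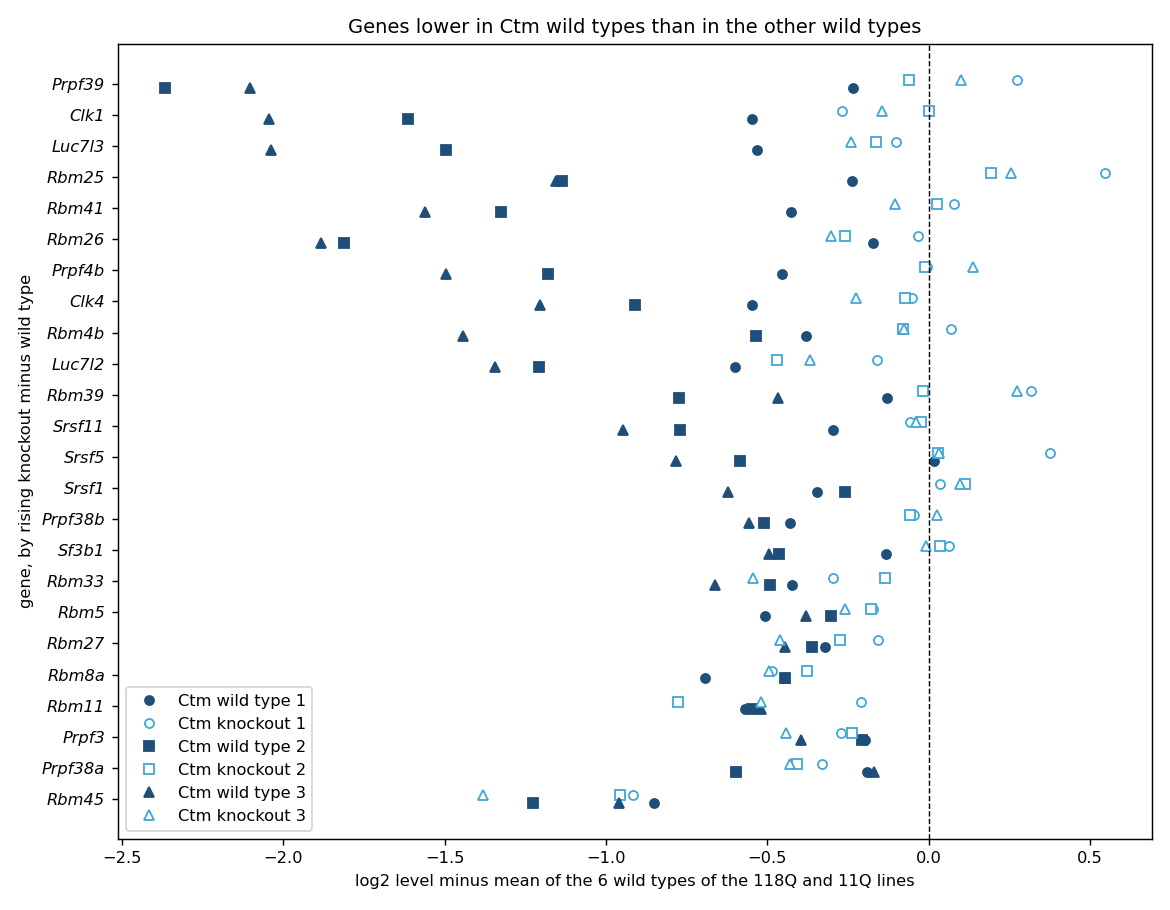
Log2 level minus the mean of the 6 knock-in-line wild types (dashed line) of the 24 genes lower in Ctm wild types, for each Ctm wild-type (filled) and knockout (open) array; genes run from the largest knockout minus wild-type difference at the top. At the top, wild-type arrays 2 and 3 stand far to the left (-2.37 and -2.10 for Prpf39) of array 1 and the knockouts; at the bottom, both groups lie to the left together.

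With the 6 knock-in-line wild types as control, 1 of the 74 genes was higher and 6 were lower in the Ctm knockouts, while 3.15% of all genes were higher and 6.57% lower. The 6 lower genes were Rbm8a, Rbm45, Prpf3, Prpf38a, Rbm15 and Prpf40b, and the higher gene was Rbm12b2. Against this control Clk1 was at -0.14 (adjusted p = 0.711), Luc7l2 at -0.33 (adjusted p = 0.0984), Prpf39 at 0.11 (adjusted p = 0.851) and Rbm25 at 0.33 (adjusted p = 0.190). None of the 12 genes higher than in littermates was called at its brightest probe set. With every probe set tested by itself, dimmer ones were called higher in Prpf38b (1.03 and 0.62), Luc7l3 (0.86), Rbm25 (0.86) and Srsf1 (0.62). Other dimmer ones were called lower in Rbm39 (-0.87 and -0.66), Srsf11 (-0.46), Prpf38b (-0.43) and Luc7l2 (-0.41). The genes called in this line thus differed with the wild types used as control.

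The calls against littermates also rested on few arrays. Without Ctm wild-type array 1 the count rose from 12 to 18, 17 higher and 1 lower, as the calls over all genes went from 169 to 447. Without wild-type arrays 2 or 3 it was 1 and 0, beside 41 and 1 over all genes, and without knockout arrays 1, 2 or 3 it was 0, 1 and 2, beside 7, 24 and 33. The members' calls were thus lost together with most calls over all genes. Without both wild-type arrays 2 and 3 it was 0, beside 4 over all genes, and Clk1, Luc7l3, Prpf39 and Rbm25 had differences of 0.41, 0.36, 0.34 and 0.57. With the 6 Ctm arrays fitted alone 0 of the 74 passed, and 1 of all genes did. All 12 differences stayed positive in each of these refits. RNA quality, measured as how far the 3′ probe sets of the Gapdh and beta-actin controls exceed the 5′ ones in log2, was 0.63, 0.66 and 0.55 in the Ctm wild types and 0.71, 0.58 and 0.56 in the knockouts, so both groups overlapped. Of 75 marker genes of 9 cell types or tissues 0 were called in the Ctm line. The median change was -0.03 for 8 Purkinje cell, 0.08 for 9 granule cell, -0.31 for 10 microglia, -0.16 for 9 endothelial and -1.10 for 9 choroid plexus markers, beside -0.06 over all genes. The summed choroid plexus signal ran from 9.02 to 12.19 in the wild types and from 6.96 to 12.19 in the knockouts. The part of these cell types in the result was not tested.

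In the 118Q line, the 5 smallest p values belonged to Prpf40b, Sf3b2, Srsf1, Clk4 and Clk3, none of them called. Prpf40b, which encodes a relative of a yeast U1 protein, was at 5.58, 5.48 and 5.35 in wild types and 5.84, 5.83 and 5.74 in knock-ins. The groups did not overlap, and the difference was 0.33 (SE 0.10, adjusted p = 0.0937). Sf3b2 was at 7.12, 7.22 and 7.67 against 7.17, 6.69 and 6.72, with overlap, a difference of -0.47 (SE 0.20, adjusted p = 0.244). Srsf1 was at 8.34, 8.33 and 8.48 against 8.12, 8.08 and 8.17, without overlap, a difference of -0.26 (SE 0.11, adjusted p = 0.247). With the mean over a gene's probe sets the difference of Srsf1 was 0.002 (adjusted p = 0.995) and that of Sf3b2 was -0.06 (adjusted p = 0.834). With all 6 wild-type arrays of both knock-in lines as control, 1 member was called, Prpf40b at 0.29, while 8.68% of all genes were. With every probe set tested by itself, 1 member probe set was called, beside 0.558% of all probe sets. It was a dimmer probe set of Rbm6, at -1.03 (SE 0.20, adjusted p = 0.0316 by limma). The brightest Rbm6 probe set was at 0.051, without a call.

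All 4 Clk genes had positive differences in the 118Q line, none called: 0.24 (adjusted p = 0.686) for Clk1, 0.22 (0.315) for Clk2, 0.27 (0.301) for Clk3 and 0.31 (0.258) for Clk4. Clk4 was at 6.23, 6.20 and 6.02 in wild types and 6.24, 6.60 and 6.53 in knock-ins, and Clk3 at 6.06, 6.08 and 5.88 against 5.95, 6.44 and 6.43. In both genes knock-in array 1 lay apart from knock-in arrays 2 and 3, and without it Clk3 was at 0.43 and called (adjusted p = 0.0352). In that refit 2 of the 74 members were called, as the calls over all genes went from 280 to 941 (5.17%). In the same line 5 of 8 Purkinje cell markers were called lower (median -0.70), 4 of 10 microglia markers higher (median 0.60) and 2 of 9 endothelial markers lower (median -0.49). The summed Purkinje cell signal was 12.72 to 13.04 in knock-ins and 13.15 to 13.23 in wild types. The RNA quality measure was 0.41 to 0.47 in knock-ins and 0.50 to 0.61 in wild types. The part of these in the Clk values was not tested.

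In the 11Q line the smallest p values were those of Rbm3os, Srsf3, Rbm18, Rbm12b1 and Rbm15b, with differences of -0.32, -0.29, -0.29, -0.47 and -0.21 and adjusted p = 0.876 for each. Rbm3os was at 1.03, 0.74 and 0.49 in wild types and 0.49, 0.35 and 0.46 in knock-ins. Srsf3, an SR protein gene, averaged 7.64 in wild types and 7.35 in knock-ins, of which the array at 7.54 lay within the wild-type range. Knock-ins lay below all wild types in 9 members (12.2%), against 6.12% of all genes, and above in 2 (2.70%), against 4.14%. In the same comparison 0 of the 75 marker genes were called. The 9 choroid plexus markers had a median change of -2.11, with a summed signal of 6.47 to 11.9 in knock-ins and of 12 to 12.05 in wild types, and the 8 hindbrain markers had a median of -0.20. Their part in the members' values was not tested.

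Differences between the lines were tested as such. The 118Q change minus the Ctm change was called in 6 of the 74 genes, each with the 118Q change lower, while 2.93% of all genes were called and 1.09% with the 118Q change lower. They were Srsf1 at -0.75 (SE 0.16, adjusted p = 0.0226), Rbm25 at -1.20 (SE 0.26, adjusted p = 0.0280), Luc7l2 at -0.84 (SE 0.21, adjusted p = 0.0390), Rbm41 at -1.21 (SE 0.31, adjusted p = 0.0427), Rbm39 at -0.78 (SE 0.20, adjusted p = 0.0465) and Prpf38b at -0.54 (SE 0.14, adjusted p = 0.0481). For Srsf1 the 118Q change of -0.26 and the Ctm change of 0.49 were of opposite sign, while for Rbm25 they were -0.02 and 1.17. Of the 6 genes, 3 stayed called with the mean of probe sets and 3 with every probe set by itself. Those fits called 2.95% of all genes and 1.63% of all probe sets. With the RNA quality covariate 0 of the 74 were called, as the calls over all genes went from 533 to 67, while the 6 differences ranged from -1.18 to -0.53 and that of Srsf1 was -0.76 (SE 0.17, adjusted p = 0.0569). Without Ctm wild-type array 1 the count was 15, beside 715 over all genes, without Ctm wild-type arrays 2 or 3 it was 2 and 0, without Ctm knockout arrays 1, 2 or 3 it was 0, 1 and 1, and without 118Q wild-type arrays 2 or 3 or knock-in arrays 2 or 3 it was 2, 0, 0 and 0, beside 24 to 447 over all genes in these refits. The Ctm change minus the 11Q change was called in 0 of 74 genes and in 0% of all genes. At an unadjusted p below 0.05 it passed in 21 members (28.4%), beside 8.48% of all genes. Without Ctm wild-type array 1 it was called in 12, beside 282 over all genes. Its smallest p values were those of Prpf4b at 1.39 (SE 0.30, adjusted p = 0.145), Rbm25 at 1.16 (0.145), Rbm41 at 1.28 (0.174), Clk1 at 1.36 (0.201) and Srsf11 at 0.67 (0.202). The 118Q change minus the 11Q change was called in 0 of 74 genes and in 0% of all genes. At an unadjusted p below 0.05 it passed in 1 member (1.35%), beside 10.3% of all genes. Prpf38a was at 0.39 (adjusted p = 0.398), Prpf8 at -0.36, Rbm15b at 0.29, Sf3b6 at 0.36 and Prpf4 at 0.27.

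Other genes of the splicing machinery were counted in 10 lists with 148 measured genes. Like the members, these lists were chosen with earlier results of these data known, so their shares are no independent test. In the Ctm line 6 of the 148 (4.05%) were higher and 0 lower, beside 0.835% of all genes higher. In the 118Q line 1 (0.676%) was higher and 0 lower, less than the 1.54% of all genes called there, and in the 11Q line 0 were called, as among all genes. The 6 were Pnisr and Srek1, which encode SR-related proteins, at 1.36 (SE 0.23, adjusted p = 0.00900) and 0.83 (SE 0.14, adjusted p = 0.00900), and Rnpc3, a minor spliceosome gene, at 1.19 (SE 0.28, adjusted p = 0.0483). Pnn, counted with the exon junction complex, was at 0.99 (SE 0.16, adjusted p = 0.00900), Smg1, the kinase gene of nonsense-mediated decay, at 0.81 (SE 0.13, adjusted p = 0.00900), and Tia1, which encodes a protein that helps U1 bind, at 0.72 (SE 0.15, adjusted p = 0.0313). Against the 6 knock-in-line wild types, the Ctm wild types were at -1.15 in Pnisr, -0.97 in Srek1, -0.81 in Rnpc3, -1.16 in Pnn, -0.78 in Smg1 and -0.73 in Tia1, and the knockouts at 0.21, -0.14, 0.38, -0.18, 0.03 and -0.01. In all 6 the Ctm wild types lay below the other wild types, while the knockouts lay on both sides of them, with Rnpc3 and Pnisr farthest above and Pnn farthest below.

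By list, the median Ctm change was 0.37 for 21 genes of SR-related and speckle proteins, beside -0.06 over all genes. It was 0.07 for 25 neuronal splicing regulators, where Mbnl1, a gene for a regulator of developmental splicing, was at 0.51 (adjusted p = 0.0668) without a call. It was -0.07 for 10 core Sm and U1 genes, -0.03 for 14 U2 and branch site genes, -0.13 for 16 tri-snRNP genes, -0.10 for 22 genes of the Prpf19 complex and catalytic steps, -0.01 for 17 SR protein kinase and phosphatase genes and -0.07 for 9 genes of nonsense-mediated decay. For 7 minor spliceosome genes, Rnpc3 among them, the median Ctm change was -0.16. For 7 genes of the exon junction complex list, Pnn among them, it was -0.015. None of the 14, 16, 22 and 17 genes of the U2, tri-snRNP, Prpf19 complex and kinase lists was called in the Ctm line, where 0.929% of all genes were. In the 118Q line the 1 called gene was Lsm8, part of the ring on U6 RNA, at 0.47 (SE 0.11, adjusted p = 0.0372). Snrpe, a core Sm gene, was at 0.43 (adjusted p = 0.0505), Thrap3, a speckle protein gene, at -0.52 (adjusted p = 0.0532) and Ddx39b, an RNA helicase gene, at 0.41 (adjusted p = 0.0569), all without a call.

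Probe sets of a gene did not always show the same in the contrast of Ctm wild types with the other wild types. The brightest probe set of Rbm5 was at -0.40, while 3 dimmer ones were at 0.32, 0.68 and 0.71 and the dimmest at -0.49. For Prpf38b, the brightest was at -0.50 and the next at -0.77, while a dimmer one was at 0.74 and the dimmest at 0.02. For Sf3b1 both directions were called, with the brightest probe set at -0.36 (adjusted p = 0.00740) and a dimmer one at 0.47 (adjusted p = 0.00817). With every probe set tested by itself the F test called 63 of the 212 member probe sets in 32 genes, 55 with Ctm wild types lower and 8 higher, while 10.6% of all probe sets were called. For Rbm5, Prpf38b and Sf3b1 the direction between wild types thus depended on the probe set. In the contrast of Ctm wild types with the other wild types, dimmer probe sets of Sf3b2, Sf3a2 and Rbm42 were called higher, at 1.22, 0.86 and 0.595. The brightest probe sets of these genes, at 0.10, 0.03 and 0.27, were not called.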

How the data were processed

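Total RNA of 18 cerebella was hybridised to Affymetrix arrays. The deposited values are log2 expression per probe set, made by the authors with RMA (no version given) per the submitters' processing notes. Were they natural logarithms, the highest would mean an intensity of 191530, above the 65535 that 16 bits can hold. All RNA had an integrity number above 5.0 per the labels. Of 45101 probe sets, 64 are controls and 34945 carry exactly 1 gene symbol. The brightest per gene was kept, which gave 18193 genes, without a filter. RefSeq tables (GRCm38.p6) gave names and promoters, and all 74 members matched.

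limma 3.58.1 in R 4.3.3 was fitted with 1 mean per group over all arrays (12 residual and 5.98 prior degrees of freedom). Moderated tests were two-sided, with Benjamini-Hochberg adjustment over all genes and a threshold of 0.05. The code was tested on simulated data. Named were the called members of each line, or the 5 smallest p values, up to 5 per difference between lines and for the F test, all Clk and Luc7l genes, the 2 brightest per family, up to 3 genes per splicing list, and Cacna1a. Members and lists were chosen with earlier results of these data known. The alternatives were every probe set by itself, the mean of probe sets, no dim genes, trend and robust settings, array weights, quantile normalisation, an RNA quality covariate, a replicate block, the arrays of a line alone, the 6 knock-in-line wild types as control, and each array left out. The number of arrays limits the precision.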

Additional observations from a re-analysis of the deposited data

Results flagged for a closer look

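For 6 splicing factor genes the 118Q change and the Ctm change differed by the test of the difference itself (limma, adjusted p below 0.05 over all genes). The 118Q minus Ctm values were -0.84 for Luc7l2, -0.54 for Prpf38b, -1.20 for Rbm25, -0.78 for Rbm39, -1.21 for Rbm41 and -0.75 for Srsf1. Each takes in the Ctm wild-type arrays, and with the RNA quality covariate the values ranged from -1.18 to -0.53 and 0 of the 6 were called, as the calls over all genes went from 533 to 67. With the mean of probe sets 6 members were called (2.95% of all genes), but only 3 of them were among the 6 named here. With every probe set by itself 5 were called (1.63% of all probe sets), again with 3 of the 6 named.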

How the results depend on the processing

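Percentages in parentheses give the share of all genes, or of all probe sets, called in the same fit. In the 118Q line 1 splicing factor gene, Rbm6, was called in place of 0 (1.54%) with every probe set by itself (0.558%). The count was also 1 without the dimmer 50% of genes (6.23%) and with the 6 knock-in-line wild types as control (8.68%). It was 3 with array weights (9.56%) and 0 to 2 without single arrays (0.0110% to 5.17%). In the Ctm line 7 were called in place of 12 (0.929%) with the 6 wild types as control (9.72%), 1 higher and 6 lower. None of the 12 was among these 7. Fitting only the 6 Ctm arrays left 0 calls (0.00550%), and leaving out single arrays gave 0 to 18 (0.00550% to 2.46%). Without Ctm wild-type arrays 2 and 3 only 1 Ctm wild type remains, and the 12 differences ranged from 0.26 to 0.57. The 118Q minus Ctm difference was called in 11 in place of 6 (2.93%) without the dimmer 50% of genes (11.7%), which left 60 members. It was called in 16 with array weights (10.4%), in 0 with the RNA quality covariate (0.368%) and in 0 to 15 without single arrays (0.132% to 5.61%). The Ctm minus 11Q difference was called in 9 in place of 0 (0%) with array weights (0.792%) and in 0 to 12 without single arrays (0% to 1.55%). The F test over wild types called 32 in place of 18 (9.78%) with every probe set by itself (10.6%), and 8 to 20 without single arrays (3.61% to 10.4%). Its alternative without Ctm wild-type arrays 2 and 3 was chosen after seeing the data. The 11Q line and the 118Q minus 11Q difference kept 0 calls under all alternatives run. The causes were not tested, though a refit without arrays has fewer samples.

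Against the 6 wild types, Ctm differences changed sign for Clk1 (-0.14), Clk4 (-0.12), Luc7l2 (-0.33), Luc7l3 (-0.17), Prpf38b (-0.026) and Srsf11 (-0.041), and that of Rbm41 was 0. With the mean of probe sets the 118Q difference of Srsf1 was 0.002. Deviations of arrays of the same number from their group means correlated at -0.20 to 0.23. With 3 arrays per group these values cannot decide whether the numbers pair arrays, and the main fit assumed no pairing. With the replicate block 11 of 74 were called in the Ctm line, 19 by the F test and 4 for 118Q minus Ctm, and 0 elsewhere. The shares of all genes in the first 3 were 0.863%, 9.85% and 2.38%.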
